A study of Homo sapiens with 3 samples.

Results

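Some probe sets of a whole-transcript array cannot be assigned to a single gene, because the platform annotation lists several genes for them. The probe sets described here are those of one LNCaP experiment with 2 or more gene symbols in the annotation. They were chosen by measured values as well: the mean log2 value over the 3 arrays had to reach 5.12, the 30th percentile of the means of probe sets naming 1 gene. Of 33297 probe sets in the deposited table, 1754 named several genes and 1318 of these reached that level. That mean takes in 1 control array and 2 siRNA arrays, described below, so the choice was not independent of the contrast between them. In 17 members only the siRNA arrays reached the level, and in 1 only the control did.

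LNCaP is an established human prostate carcinoma line, grown from a metastasis and responsive to androgens. Each array held RNA of LNCaP cells in RPMI1640 with 10% serum, transfected by RNAiMAX and collected 72 hours later. One array came from a negative control siRNA, which the series design names siGl2, and the others came from siSE1 and siSE2, siRNAs directed at the SLC45A3-ELK4 chimeric transcript. This gave 2 chimera siRNA arrays against 1 control array, in 1 cell line with no further genotype or treatment named. The title of the siSE2 array was followed, although its transfection field names siSE1. If that field is right, the differences given below between siSE1 and siSE2 compare a single siRNA with itself. Separate cultures are not mentioned in the labels, so a p-value here covers only how these arrays vary, which may be technical.

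Several genes fall under one probe set for a few known reasons. Copies made by gene duplication, and the pseudogenes left by it, keep stretches of sequence so alike that a short probe binds all of them. Other genes overlap on the chromosome: a readthrough gene contains the exons of the genes it joins, and small nucleolar RNAs, which guide the modification of ribosomal RNA, lie inside the introns of host genes. Such a probe set reports the summed signal of whatever its probes bind, and the array cannot divide it among the genes. In RNA from a whole culture, fewer cells expressing a gene and less RNA per cell cannot be told apart either.

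Members that share a row because they are copies could still differ in what controls them, so the sequences just before the start of a few of them are shown. All were read from RefSeq on GRCh38.p14, 120 bases up to the last base before the start, 5′ to 3′ on the gene's strand. The 3 histone H3 genes of 1 member field, H3C13 (chr1:149813694-149813813, minus strand), H3C14 (chr1:149841209-149841328, minus strand) and H3C15 (chr1:149852488-149852607, plus strand), encode the same H3 protein. Capitals mark 3 motifs, each searched on both strands. One is the core of the TATA box, by the letters TATAA, found near the start of many strongly induced genes. Another is the box bound by the factor NF-Y, with the letters CCAAT. The last is the core of the cell cycle homology region of many mitotic genes, written TTTGAA.
H3C13: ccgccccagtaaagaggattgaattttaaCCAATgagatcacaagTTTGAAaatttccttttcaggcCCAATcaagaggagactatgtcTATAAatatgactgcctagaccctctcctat
H3C14: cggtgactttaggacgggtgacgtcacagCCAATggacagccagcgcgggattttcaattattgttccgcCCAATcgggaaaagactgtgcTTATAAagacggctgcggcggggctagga
H3C15: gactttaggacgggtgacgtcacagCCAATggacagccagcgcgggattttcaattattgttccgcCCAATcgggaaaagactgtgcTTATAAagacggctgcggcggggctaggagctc
H3C14 and H3C15 lie in opposite orientations, and their stretches were 93.5% identical when aligned. Against H3C13 the identities were 52.0% for H3C14 and 51.5% for H3C15. All 3 stretches held the TATA core and the NF-Y box, and the cell cycle element was found in that of H3C13 and not in the others. Among 27305 stretches of the same length in the table, 10.7% held the TATA core, 21.2% the NF-Y box and 5.75% the cell cycle element on either strand. A match of letters is a description and does not show that a factor binds there.

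The histone H4 pair H4C11 (chr6:27823972-27824091, plus strand) and H4C12 (chr6:27831561-27831680, minus strand) shared nearly the whole stretch, with 1 position that differed and the TATA core, in capitals, in both.
H4C11: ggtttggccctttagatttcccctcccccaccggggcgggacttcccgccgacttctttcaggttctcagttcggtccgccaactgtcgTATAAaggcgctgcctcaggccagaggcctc
H4C12: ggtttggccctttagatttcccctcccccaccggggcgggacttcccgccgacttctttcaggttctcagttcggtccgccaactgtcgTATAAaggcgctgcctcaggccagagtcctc
The Rab-like GTPase genes RABL2A (chr2:113627146-113627265, plus strand) and RABL2B (chr22:50783637-50783756, minus strand) lie on different chromosomes. Their stretches differed at 2 positions, which the capitals mark.
RABL2A: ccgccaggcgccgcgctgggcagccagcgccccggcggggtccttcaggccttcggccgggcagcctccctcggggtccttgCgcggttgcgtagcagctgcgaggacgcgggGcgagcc
RABL2B: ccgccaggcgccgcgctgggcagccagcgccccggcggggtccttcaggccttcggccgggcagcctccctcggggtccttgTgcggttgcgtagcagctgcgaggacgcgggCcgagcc
CENPA (chr2:26785936-26786055, plus strand), the centromeric histone, held the cell cycle element and neither other motif. DEXI (chr16:10942469-10942588, minus strand), of the member farthest above the control, held the NF-Y box at 3 places. SNHG12 (chr1:28581874-28581993, minus strand), a host gene of small nucleolar RNAs, held the TATA core.
CENPA: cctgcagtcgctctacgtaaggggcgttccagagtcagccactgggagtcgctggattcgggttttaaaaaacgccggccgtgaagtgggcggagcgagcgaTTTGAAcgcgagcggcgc
DEXI: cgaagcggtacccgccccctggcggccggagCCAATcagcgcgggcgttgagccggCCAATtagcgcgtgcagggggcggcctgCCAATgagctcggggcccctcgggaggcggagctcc
SNHG12: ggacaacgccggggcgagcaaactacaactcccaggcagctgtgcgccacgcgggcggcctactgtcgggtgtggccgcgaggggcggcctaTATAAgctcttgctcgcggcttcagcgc
Most pairs of genes sharing a row were less alike than H4C11 with H4C12 or RABL2A with RABL2B. A promoter entry was found for 999 of 1707 gene identifiers named by members. Over the full entries, which also take in the bases just after the start, 796 pairs from rows classed as the same family had a median identity of 61.7%. Only 132 of the 796, 16.6%, reached 95%. A row was so classed where any of its symbols shared their first 3 letters, and all its pairs were counted. Some of the pairs are therefore not copies, such as POM121C with ZP3 at 47.1%.

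The members named 1706 genes, and 1339 of them had no probe set of their own in the table. For those genes the shared value is the measurement the table offers. A total of 637 members named 2 genes, 346 named 3 or 4, and 335 named 5 or more, up to 15. Members classed as the same family, by any of their symbols sharing the first 3 letters, numbered 867. Such a row can also name an unrelated gene, as that of UQCRH and UQCRHL names GNA13. Readthrough genes with their parts made up 200, neighbouring genes 73, a small RNA gene with another gene 52, an antisense or divergent transcript 5, and other combinations 121. The members are not independent measurements: they carried 767 different sets of genes, and 234 of them shared all 3 values with another member. The most repeated set, genes of the SPDYE family, which encode proteins of the Speedy group of cyclin-dependent kinase activators, had 16 probe sets.

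On the targeted genes, the probe set naming SLC45A3 alone read 9.66 with the control siRNA, 9.14 with siSE1 and 9.27 with siSE2, and that naming ELK4 alone read 8.50, 8.45 and 8.20. Neither reads the chimeric transcript by itself. Array medians over all probe sets were 5.80, 5.84 and 5.84. Of 11 prostate luminal markers, 7 had a probe set naming them alone, and all 7 were above the cutoff, with median values of 9.82, 9.69 and 9.74. Of 6 blood cell markers, all with such a probe set, 2 were above the cutoff, as were 5 of 7 stromal ones. FOLH1, which encodes prostate-specific membrane antigen, was measured only with its copy FOLH1B. Those 2 members, named here after their values were seen, read 11.21 and 11.45 with the control siRNA, 11.44 and 11.57 with siSE1, and 11.31 and 11.46 with siSE2.

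None of the 1318 members passed limma's test at an adjusted p of 0.05, in either direction. The test was fitted on all 20315 probe sets at or above the cutoff, of which 0% were called higher and 0% lower. At an unadjusted p under 0.05, 67 members (5.08%) stood higher with the siRNAs and 76 (5.77%) lower, against 6.65% and 8.09% of all probe sets tested. Both shares were below those of all probe sets tested. Probe sets naming 1 gene gave 4.93% and 8.72%, so the members' higher share was not below theirs. The lowest adjusted p of any member was 0.174. With 1 residual degree of freedom, taken from the difference between siSE1 and siSE2, the control array is assumed to vary as the siRNA arrays do. In a fit restricted to probe sets with a gene symbol, 2 members passed higher and 2 lower, where 0.247% and 0.454% of the 14969 probe sets passed in each direction. These 4 are the DEXI pair of identical rows, EFL1 with EFL1P1, and CDC26 with FKBP15, described below.

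By size alone, 9 members were at least 1.5-fold higher and 10 at least 1.5-fold lower than the control on both siRNA arrays. These are 0.683% and 0.759% of the members, against 1.07% and 1.51% of all probe sets. Probe sets naming 1 gene gave 0.63% and 1.54%. The 9 higher members belong to 6 sets of genes and the 10 lower ones to 9. Both differences are taken from the same control array, so agreement between the siRNAs is not independent of it. Against the control, siSE1 alone put 11 members 1.5-fold higher and 27 lower, where the backgrounds are 2.94% and 4.48%. With siSE2 alone the counts were 13 and 14, where the backgrounds are 2.03% and 2.92%. Every one of these shares lay below its background.

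**Figure D1:**
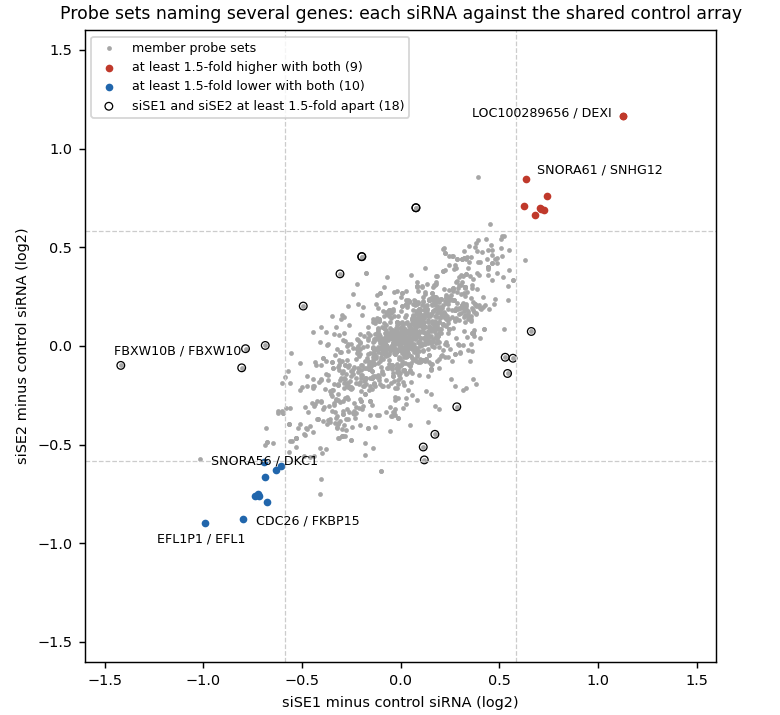
Each point is 1 member probe set, with its log2 difference from the control siRNA array for siSE1 (horizontal) and siSE2 (vertical); dashed lines mark 1.5-fold. Most points lie near 0, 9 lie past 1.5-fold in the upper right, 10 in the lower left, and 18 circled ones differ at least 1.5-fold between the siRNAs.

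Over all members the median difference, the mean of the siRNA arrays minus the control, was 0.024 on the log2 scale. The quartiles were -0.12 and 0.15, and the extremes were -0.94 and 1.15. The median over all probe sets tested was 0.004. Averaging members of the same genes first brought the members' median to 0.0031, and setting equal array medians turned it to -0.016. The members were also less spread: their median absolute difference was 0.138, where probe sets naming 1 gene had 0.165. Members naming 5 or more genes had a median of 0.060, with 69.9% of them above 0 and none past 1.5-fold on both arrays. Those naming 2 genes had a median of 0.003 (-0.025 with siSE1 alone) and held 14 of the 19 past that size. No test was made of these differences between sets of probe sets.

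The member farthest above the control carried DEXI, named for a transcript induced by dexamethasone, together with LOC100289656 on another chromosome. It read 8.17 with the control siRNA, 9.30 with siSE1 and 9.34 with siSE2. Both siRNA arrays lay above the control by far more than they differed from each other. The difference was 1.15 ± 0.14 (log2, SE of the limma fit, n = 2 against 1), or 2.21-fold, with an adjusted p of 0.174. In the fit on named probe sets the adjusted p was 0.0289. A second row with the same genes held the same 3 values and adds nothing. The probe set naming DEXI alone read 6.99, 7.36 and 7.45, a smaller difference of 0.41 in the same direction.

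GCSH encodes the H protein of the glycine cleavage system, which carries lipoic acid in mitochondria. Its 3 members, all shared with pseudogenes or uncharacterised loci, stood above the control on both siRNA arrays. The row naming GCSH and LOC729080 read 9.26 with the control, 10.00 with siSE1 and 10.02 with siSE2, so the arrays differed from the control by 0.75 ± 0.14 (adjusted p = 0.204, limma). The rows that also name GCSHP3 and LOC641746 read 8.70, 9.41 and 9.39, and 8.88, 9.56 and 9.54. In all 3 the siRNA arrays lay within 0.02 of each other.

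RRN3, the factor that brings RNA polymerase I to ribosomal RNA genes, shares its members with the pseudogenes RRN3P1 and RRN3P2. One row read 8.41 with the control, 9.12 with siSE1 and 9.11 with siSE2. A second read 8.27, 8.99 and 8.96, so both stood 1.63-fold above the control (adjusted p = 0.210, limma, in each). RRN3 alone, in a probe set of its own, read 7.648, 8.005 and 8.215. Its siRNA arrays also lay above the control.

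The heat shock genes HSPA6 and HSPA7, a stress-inducible Hsp70 gene and its close copy, read 6.85 with the control, 7.47 with siSE1 and 7.56 with siSE2 (0.67 ± 0.14, adjusted p = 0.213, limma). Of 11 members naming chaperones, this was the 1 past an unadjusted p of 0.05. The row of HSPA1A and HSPA1B, the main inducible Hsp70 genes, read 9.62, 9.66 and 9.84. Just under 1.5-fold stood the noncoding LINC00537 with LOC107987020 (6.70, 7.23 and 7.26), 4 genes related to the methyl-CpG binding protein MBD3 (5.59, 6.10 and 6.15) and HYPK with a readthrough gene (6.55, 7.05 and 7.09). HYPK binds the enzyme that acetylates the ends of nascent proteins.

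**Figure D2:**
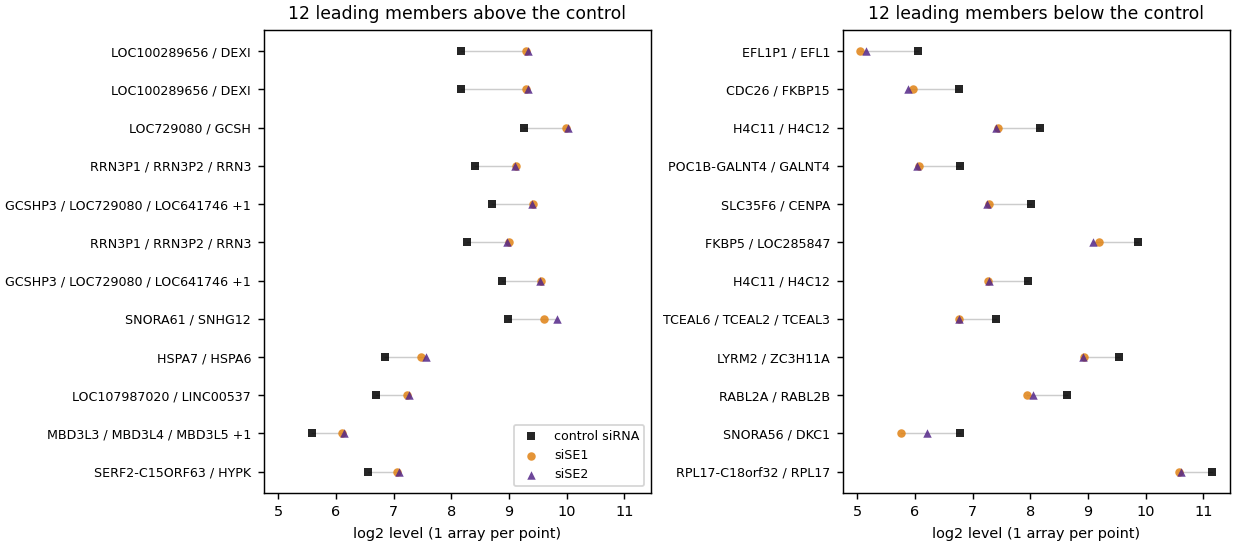
The 12 members farthest above (left) and below (right) the control siRNA, ranked by the smaller of their 2 differences; each row is 1 probe set, each mark the log2 value of 1 array. In every row the siRNA marks lie on the same side of the control, as the choice of rows required. In the row of DKC1 with SNORA56 the siRNA marks lie farthest apart.

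Among the members below the control, EFL1 with its pseudogene EFL1P1 came first. EFL1 is a GTPase that helps to release a blocking factor from new large ribosomal subunits. The row read 6.05 with the control, 5.05 with siSE1 and 5.15 with siSE2, so the arrays differed from the control by -0.94 ± 0.14 (log2), 1.93-fold. The adjusted p was 0.174 with limma on all probe sets and 0.0341 in the fit on named ones. Both siRNA values lay close to the cutoff of 5.12. EFL1 alone read 5.49, 5.12 and 5.04, lower on both siRNA arrays as well.

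CDC26, a small subunit of the anaphase-promoting complex, shared a row with FKBP15, of the FK506-binding family. That row read 6.76 with the control, 5.96 with siSE1 and 5.88 with siSE2, so the arrays differed from the control by -0.84 ± 0.14 (adjusted p = 0.191, limma; 0.0458 in the fit on named probe sets). Both genes also had probe sets of their own, which differed in size. CDC26 read 7.85, 6.50 and 7.02, and FKBP15 read 8.25, 7.96 and 8.09. The shared row is thus closer in its difference to CDC26, at -1.09, than to FKBP15, at -0.22.

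A similar pair is CENPA, which replaces histone H3 at centromeres, with its neighbour SLC35F6, a member of a transporter family. The shared row read 8.01 with the control, 7.29 with siSE1 and 7.25 with siSE2 (-0.74 ± 0.14, adjusted p = 0.204, limma). SLC35F6 alone read 8.44, 8.24 and 8.20, a difference of -0.23. The table has no row for CENPA alone among those used here.

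FKBP5, a co-chaperone of steroid receptors that androgens induce, shared its row with LOC285847. It read 9.87 with the control, 9.20 with siSE1 and 9.08 with siSE2 (-0.73 ± 0.14, adjusted p = 0.210, limma). Another row that names TMPRSS2 as well, an androgen-induced protease, read 10.74, 10.69 and 10.80 and did not separate the arrays.

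GALNT4, which starts the attachment of sugars to mucin-type proteins, was measured with the readthrough gene POC1B-GALNT4 and read 6.79, 6.07 and 6.04 (-0.74 ± 0.14, adjusted p = 0.204, limma). RABL2A with RABL2B read 8.64 with the control, 7.95 with siSE1 and 8.05 with siSE2, so the arrays differed from the control by -0.64 ± 0.14. LYRM2 with ZC3H11A read 9.53, 8.92 and 8.92. The genes of that last row lie on different chromosomes. LYRM2 alone read 7.85, 7.70 and 7.52, and the differences of ZC3H11A's own rows were -0.26 and -0.17, all smaller than -0.61 in the shared row.

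A member can also go against the probe set of one of its genes. TCEAL2, TCEAL3 and TCEAL6, related to a transcription elongation factor, together read 7.40 with the control, 6.77 with siSE1 and 6.77 with siSE2. TCEAL3 alone read 6.86, 7.23 and 6.98, higher on both siRNA arrays. The row of RET and KIF5B read 5.26, 5.71 and 5.88, whereas KIF5B alone, the heavy chain of a kinesin motor, read 10.58, 10.27 and 10.54.

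The comparison with probe sets naming 1 of the same genes could be made for 496 members. Of these, 65.3% had a difference of the same sign as the mean of those probe sets. Across these members Pearson's r was 0.51 and Spearman's rho 0.50, given as a description, since all values share the 3 arrays and the same control. For genes of the same family r was 0.56 over 352 members, and for readthrough genes 0.68 over 23. For small RNA genes with another gene it was 0.19 over 24, of which 12 had the same sign.

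**Figure D3:**
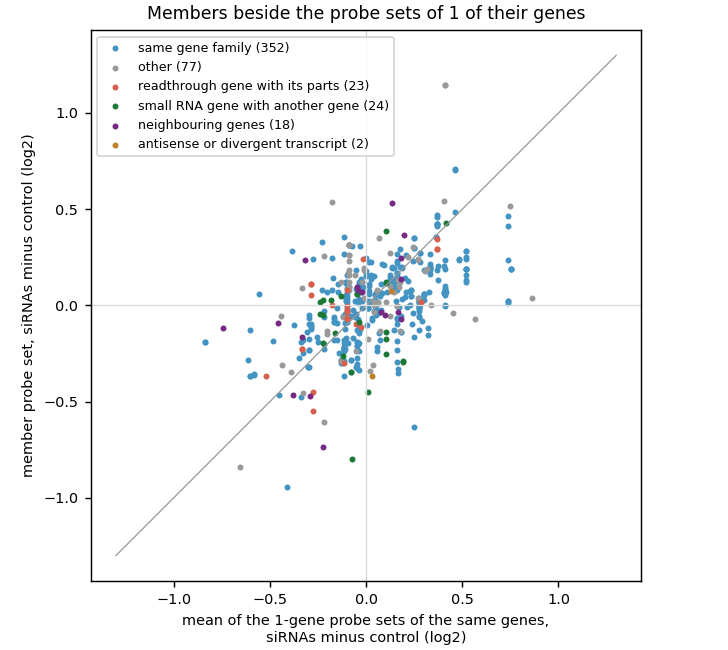
Each point is 1 of 496 members, with the mean log2 difference of the probe sets naming 1 of its genes (horizontal) against its own difference (vertical), siRNAs minus control; colours give the structural class. Points of gene families follow the diagonal loosely, and the uppermost point, DEXI with LOC100289656, lies well above it.

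Histone genes formed the list with the lowest median among those of more than 5 members. The replication-dependent ones encode the core histones made during DNA synthesis. The list held 23 members of 13 sets of genes, with a median difference of -0.19, against 0.004 over all probe sets tested. With siSE1 alone the list's median was -0.13, and with siSE2 alone -0.37. At an unadjusted p under 0.05, 8 were lower and 0 higher, where 8.09% and 6.65% of all probe sets tested were, and none passed the adjusted test. The H4C11 and H4C12 rows read 8.17 with the control, 7.43 with siSE1 and 7.41 with siSE2, and 7.96, 7.27 and 7.29. These were the 2 histone rows past 1.5-fold on both siRNA arrays.

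The 4 rows of H3C13, H3C14 and H3C15 differed from the control by -0.57 to -0.59. The first read 12.18, 11.49 and 11.68, another 11.61, 10.97 and 11.12, and the last pair held the same values, 11.25, 10.57 and 10.76. H3C4 with H2AC7 read 10.01, 9.61 and 9.34, and H3C10 with H2AC13 read 7.91, 7.51 and 7.37. Closer to the control were rows of H2AC18 to H2AC21 at -0.36, H4C14 with H4C15 at -0.19, and H2BC18 with H2BP1 at -0.15 and -0.12. The 8 rows named before these were among the lowest of the list, and all lay below the control on both siRNA arrays. Not all histone members did: the 4 rows of H3-3A, which encodes the H3 variant deposited outside replication, with H3P6 had differences of 0.06 to 0.15. FAM72A, FAM72B and FAM72D, near-identical genes expressed in dividing cells, were named after their values were seen. Their 4 rows read 8.39 to 8.55 with the control, 7.84 to 8.25 with siSE1 and 7.91 to 8.10 with siSE2, and no siRNA value reached the control of its row.

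**Figure D4:**
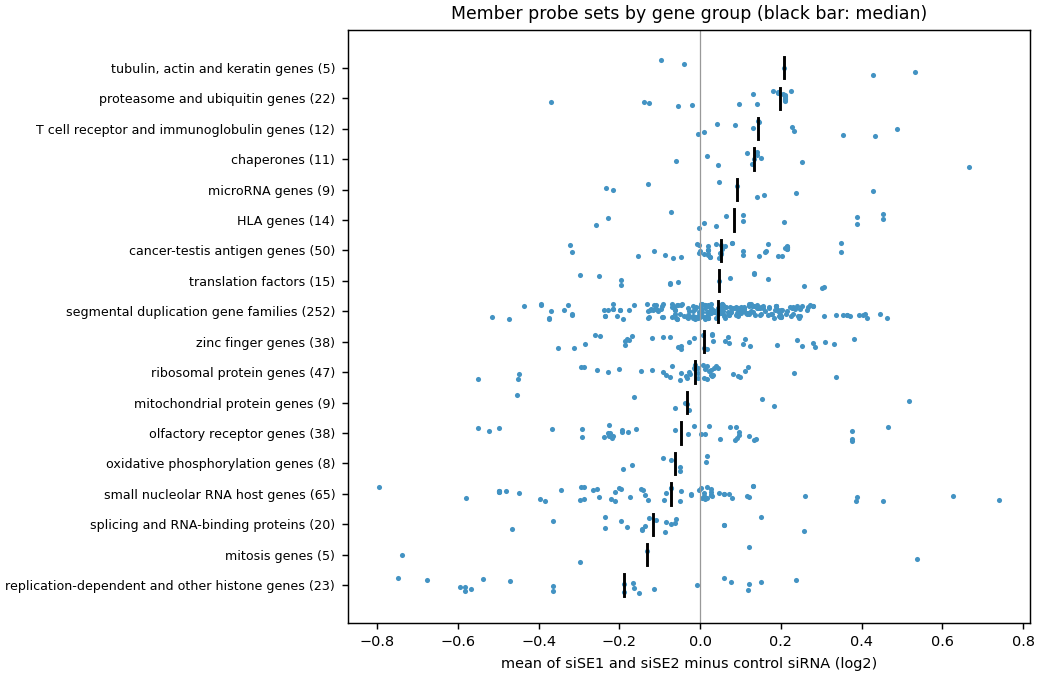
Each point is 1 member probe set of a gene list with at least 5 members, at its log2 difference from the control siRNA (mean of siSE1 and siSE2); black bars are medians and the number of members follows each name. The histone list has the lowest median, -0.19, and points of nearly every list lie on both sides of 0.

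Small nucleolar RNAs and the genes that host them gave 65 members with a median difference of -0.07, which was -0.11 with siSE1 alone and -0.03 with siSE2 alone. At an unadjusted p under 0.05, 4 were higher and 11 lower, against 6.65% and 8.09% of all probe sets tested. Of the 11 lower ones, 5 were SNORD3 rows with identical values, which are 1 measurement. The 65 members held 54 different sets of values. Within SNHG12, probe sets lay on both sides of the control, though no test was made between them. SNORA61 with SNHG12 read 8.98 with the control, 9.61 with siSE1 and 9.82 with siSE2, at 0.74 ± 0.16 (adjusted p = 0.213, limma). SNORA16A with the same host read 8.36, 7.85 and 8.28, and SNORA44 read 6.29, 6.07 and 6.33. The row naming SNHG12 with all 3 read 7.88, 8.21 and 8.32. Only the first and the last lay above the control on both siRNA arrays.

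DKC1 encodes dyskerin, the enzyme of the box H/ACA particles that modify ribosomal RNA, and hosts SNORA56. Their row read 6.78 with the control, 5.77 with siSE1 and 6.21 with siSE2 (-0.80 ± 0.21, adjusted p = 0.237, limma). DKC1 alone read 8.32, 8.23 and 8.26, at -0.07. RPS2, a protein of the small ribosomal subunit, showed the same with SNORA64: 7.62, 7.15 and 7.20 for the shared row, and differences of -0.01 to 0.03 for the 3 rows of RPS2 alone. SNHG3 with SNORA73A read 8.79, 9.28 and 9.20, whereas RCC1, the overlapping gene, with SNHG3 read 8.36, 7.99 and 7.97. In those 2 rows the siRNA arrays lay on opposite sides of the control. The RCC1 row was not picked by the rule for named members and was added with earlier results known.

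SNHG1 had 6 members with differences from -0.58 to 0.08, the lowest with SNORD25 at 5.807, 5.398 and 5.057. TAF1D, a subunit of the factor that selects RNA polymerase I promoters, also had 6, from -0.25 to 0.39. GAS5, a growth arrest transcript, had 3, all below the control at -0.40 to -0.13. The 4 members of RPL10 and SNORA70 stayed within -0.05 and 0.03. SNORD3, the U3 RNA needed for cutting the ribosomal RNA precursor, read 8.41 with the control, 7.88 with siSE1 and 7.94 with siSE2 in rows with identical values.

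**Figure D5:**
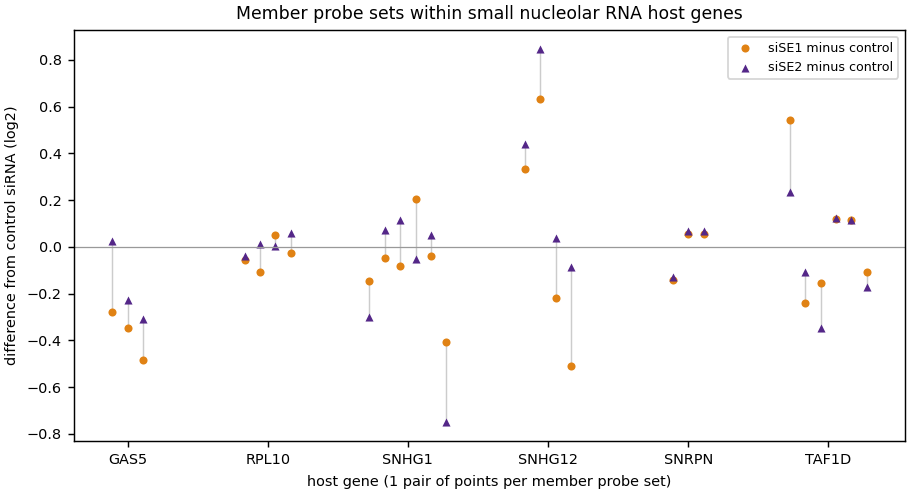
Log2 differences from the control siRNA for siSE1 (circles) and siSE2 (triangles) in member probe sets of the 6 host genes with at least 3 of them; each joined pair is 1 probe set. SNHG12 and TAF1D have pairs well above and well below 0, whereas those of RPL10 stay close to it, between -0.11 and 0.06.

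Ribosomal protein genes gave 47 members with a median of -0.01, of which 3 were lower and 0 higher at an unadjusted p under 0.05. The share of lower ones was below the 8.09% of all probe sets tested. RPL17 with its readthrough gene read 11.15, 10.58 and 10.62 in one row and 10.81, 10.43 and 10.29 in another. The protein belongs to the large subunit. Splicing and RNA-binding proteins had 20 members with a median of -0.12, 2 of them lower at that threshold. HNRNPUL2 with a readthrough gene read 9.22, 8.73 and 8.77, and HNRNPC with HNRNPCL1, a binder of nascent transcripts and its copy, read 9.93, 9.57 and 9.56. PDIA3, a disulfide isomerase of the endoplasmic reticulum, was measured with its pseudogene at 9.92, 9.43 and 9.47 and at 9.812, 9.355 and 9.404. In each of these rows both siRNA arrays lay below the control.

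On the other side, 22 members of proteasome and ubiquitin genes had a median of 0.20, which was 0.10 with siSE1 alone and 0.25 with siSE2 alone, and none passed even the unadjusted threshold. Of these, 15 were rows of the USP17L genes, a repeated family of deubiquitinating enzymes. Keratin 18, a filament protein of luminal epithelium, shared a row with MIR622 on another chromosome at 9.94, 10.43 and 10.31. The rows of KRT18 alone read 9.92, 10.52 and 10.42, and 9.43, 9.82 and 9.61, in the same direction. Tubulin beta 3 with MC1R read 7.81, 8.44 and 8.24. LGALS7 with LGALS7B, which encode an epithelial galectin and were named after their values were seen, read 5.79, 6.25 and 6.27, and 5.70, 6.14 and 6.15.

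Counts for duplicated and immune gene families are given beside the background at an unadjusted p under 0.05, 6.65% higher and 8.09% lower over all probe sets tested, and no test was made of any list. Families of segmental duplications, such as GOLGA, NBPF and TBC1D3, gave 252 members with a median of 0.05, 8 higher and 7 lower. Cancer-testis antigen genes gave 50 with 2 higher and 0 lower, zinc finger genes 38 with 1 and 0, and olfactory receptor genes 38 with 4 and 4. The 2 higher cancer-testis rows, of CTAG1A, CTAG1B and CTAG2, held identical values and are 1 measurement. T cell receptor and immunoglobulin genes gave 12 members with 3 higher and 0 lower, and HLA genes 14 with 2 and 0. The 2 higher HLA rows, of the class II genes HLA-DQB1 and HLA-DQB2, held identical values, 5.23, 5.80 and 5.57, and are 1 measurement. Over all 4 rows of these genes the differences ran from -0.07 to 0.45, so they lay on both sides of 0. The summed values of the 6 blood markers were 25.8 with the control, 27.9 with siSE1 and 27.0 with siSE2. LYZ alone, at 4.41, 6.09 and 5.11, made up most of the difference with siSE1. The part of these markers in the rows above was not tested.

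Of the smaller lists, translation factors had 15 members, mitochondrial proteins 9 and oxidative phosphorylation 8, with medians of 0.05, -0.03 and -0.06. None of these medians was steady over the siRNAs: with siSE1 alone they were -0.06, -0.08 and -0.03, and with siSE2 alone -0.01, 0.02 and -0.12. In the second, 1 member stood higher and 1 lower at the unadjusted threshold. In the other lists of this kind 0 did, and EIF5A with EIF5AL1, a translation factor and its copy, read 10.58, 10.88 and 10.89. The 4 members of UDP-glucuronosyltransferases, which inactivate androgens, all lay below the control. The UGT2B15 and UGT2B17 rows read 8.28 with the control, 8.18 with siSE1 and 7.65 with siSE2, so the siRNA arrays differed more from each other than siSE1 did from the control. Metallothionein had 1 member and cholesterol synthesis 2, both of FDPS with its pseudogene. No member fell in the lists for DNA replication, p53 targets, immediate early genes, interferon-stimulated genes or protocadherins.

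MicroRNA genes gave 9 members, which can carry host, precursor or unrelated transcripts and do not measure the mature RNAs. Mature sequences of 4 are shown, from RefSeq, because 2 of them share a seed, bases 2 to 8, in capitals.
hsa-let-7a-5p: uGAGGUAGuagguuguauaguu
hsa-let-7b-5p: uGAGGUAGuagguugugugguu
hsa-miR-205-5p: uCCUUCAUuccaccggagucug
hsa-miR-622: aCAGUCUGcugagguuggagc
MIRLET7A3 and MIRLET7B, with the same host gene, read 5.85, 5.96 and 5.92, and 6.77, 6.48 and 6.80. The MIR205 host row read 5.070 with the control, 5.002 with siSE1 and 5.421 with siSE2. No member of this list other than that of MIR622 passed an unadjusted p of 0.05 by limma. The MIR622 row also names KRT18, which lies on another chromosome, and it read close to a row of KRT18 alone. Its difference cannot be assigned to MIR622.

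The siRNAs themselves differed by at least 1.5-fold in 18 members. In 8 (0.607%) siSE1 stood above siSE2 and in 10 (0.759%) below it, where 1.12% and 1.42% of all probe sets did. Probe sets naming 1 gene gave 0.41% and 0.725%, so the members' shares were not below theirs. With 1 array each there is no test of this. FBXW10 with FBXW10B, F-box genes, had the widest gap, at 6.97 with the control, 5.55 with siSE1 and 6.87 with siSE2. TLCD4 with a readthrough gene read 6.784, 5.999 and 6.771, SLC16A13 with JOSD1 read 7.01, 6.20 and 6.90, and the noncoding LINC01123 with LINC01106 read 7.003, 6.317 and 7.005. In these 4 the siSE1 array was low and the other arrays lay close together. CYP4F30P with CYP4F62P and FAR2P1 read 6.51, 6.63 and 5.93, with siSE2 low. CUZD1 with a readthrough gene read 6.24, 5.75 and 6.45.

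Rows that name the same set of genes can be compared on the same arrays. Among 211 sets of genes with 2 or more rows of different values, the range of the difference within a set had a median of 0.064. It reached 0.52 in the set of HLA-DQB1 and HLA-DQB2. In 40 of them the rows lay on both sides of 0. Some sets held nearly equal rows, as that of RNVU1-17 with a range of 1e-05. The median is therefore not an error between independent measurements. At the upper end of the scale, rows of the 45S ribosomal RNA precursor and its products read 13.2 to 13.4 on every array, and RN7SK, a small nuclear RNA that restrains transcription elongation, read 13.26, 13.35 and 13.33. At the lower end, the members just inside the cutoff were CYP21A2 with its pseudogene (5.06, 5.30 and 5.01), FAM74A genes (5.08, 5.18 and 5.11) and MYZAP with GCOM1 (5.04, 5.13 and 5.22). Just outside were MIR105-1 with MIR105-2, an ANKRD20A family row and a PRAMEF family row, with means of 5.11, 5.11 and 5.10. All 3 arrays reached the cutoff in 1285 members; in 17 only the siRNA arrays did, and in 1 only the control.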

How the data were processed

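Per the processing notes of the submitters, Affymetrix Expression Console produced the 33297 probe set values. The authors' deposited values were taken as log2 from their range, 1.43 to 13.9. No source used here gives its version, algorithm, background correction or genome build. Genes come from GEO's platform annotation, and 1699 of 1707 identifiers were found in a RefSeq table of GRCh38.p14.

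Probe sets with a mean of at least 5.12 (20315, each kept as 1 value) were fitted with limma 3.58.1 in R 4.3.3 (lmFit, eBayes, 2 siRNA arrays against 1 control array), with Benjamini-Hochberg adjustment over all of them. Tested on simulated data for this comparison over 20315 probe sets, the fit recovered 92 of 100 with a log2 change of 1 and 100 of 100 with a log2 change of 2, with 31 false calls beside them, so the false share of its calls exceeded the nominal 5%. The simulated variances were more alike between probe sets than those of the real fit, whose prior had 4.7 degrees of freedom. The counts recovered therefore do not give the power of the fit on the real arrays. The number of arrays limits the precision.

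Named members were the 12 farthest on each side by the smaller of their differences, up to 4 for each gene list and structural class in the same order, the 6 with the largest difference between siRNAs, the 6 of highest mean and the 3 on each side of the cutoff, with probe sets naming 1 of their genes. Members and lists were chosen with earlier results of these data known. Alternatives covered normalization, filter, variance prior, probe sets fitted, thresholds, averaging of rows and leaving out each siRNA array.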

Additional observations from a re-analysis of the deposited data

Results flagged for a closer look

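The 436 probe sets naming several genes below the level cutoff were in no comparison. Of these, 5 differed at least 1.5-fold from the control on both siRNA arrays, 3 higher and 2 lower. Among all probe sets at or above the cutoff, 1.07% were higher and 1.51% lower by this rule. The share among all probe sets below it was not computed. The 3 higher ones are rows of the noncoding FAM138 family near chromosome ends. A pair of them with identical values read 4.35 with the control, 5.30 with siSE1 and 5.08 with siSE2, and the third read 4.45, 5.41 and 5.24. The lower ones are a row of the KIR genes, receptors of natural killer cells (4.81, 3.66 and 4.21), and SEL1L2 with GPR37 (5.63, 4.63 and 4.89). No test was made of these 5.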

How the results depend on the processing

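In the fit restricted to probe sets with a gene symbol, 2 members passed higher and 2 lower instead of 0 and 0. With the other settings tried, namely quantile normalization, equal array medians, cyclic loess, no filter, a filter at the 50th percentile, a prior with a trend, a robust prior and 0.1 as the adjusted p required, the counts were 0 and 0. The lowest adjusted p of any member ran from 0.0289 (probe sets with a symbol) to 0.454 (no filter). At 2-fold in place of 1.5-fold, 2 members stood higher and 0 lower with both siRNAs. These 2 are the DEXI rows with identical values, so they are 1 measurement. The share of all probe sets past 2-fold was not computed. Leaving out 1 siRNA array, which leaves 1 array against 1 and no test, gave 11 to 13 members 1.5-fold higher and 14 to 27 lower; the 27 is siSE1 alone. The median difference of members, 0.024, became 0.033 with quantile normalization, -0.016 with equal array medians, 0.0092 with the higher filter, 0.036 with no filter and 0.0031 with rows of the same genes averaged, and 0.023 to 0.036 with 1 siRNA array left out. Equal array medians moved the median of all probe sets by -0.04. Of 119 named members, 4 changed sign under some setting with all 3 arrays: rows of RNA45SN5 with RNA18SN5, of the TUBB8 family, of RPL10 with DNASE1L1 and of the FAM74A family, all close to 0. No paired analysis was possible because the control group has 1 array. A single control array enters every difference.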
